A study of Mus musculus with 10 samples.

Results

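Hematopoietic stages of the mouse embryonic stem (ES) cell differentiation system are purified with antibodies against the surface proteins KIT, TIE2 and CD41. The 8 genes described here are Kit, Tek and Itga2b, which encode these 3 antigens, Tie1 and Itgb3, which encode the partners of TIE2 and CD41, and Kitl, Angpt1 and Angpt2, which encode ligands of KIT and TIE2. They were chosen by name, and all 8 were found among the 15686 genes of the deposited expression matrix and among the 55487 genes of the count tables. The question was whether nuclear RNA of these genes followed the surface phenotype by which the cells were sorted.

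KIT is a receptor tyrosine kinase whose ligand, KITL (stem cell factor), maintains early blood cells, germ cells and mast cells. TIE2 and TIE1 are receptor tyrosine kinases of endothelium. ANGPT1 activates TIE2, whereas ANGPT2 can activate or antagonise it depending on context, and TIE1 binds TIE2 and modulates its signal. CD41 is integrin αIIb, which reaches the cell surface paired with integrin β3 (CD61, the product of Itgb3). It is best known as the fibrinogen receptor of platelets and megakaryocytes, and it is also one of the first surface markers of embryonic blood cells.

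Nuclear-enriched RNA was sequenced from 5 stages with 2 libraries each, all derived from HM-1, a mouse ES cell line that was differentiated in medium with serum. The ES stage was undifferentiated HM-1 cells kept in serum and LIF, and the hemangioblast stage (HB) was FLK1+ cells selected with magnetic beads from embryoid bodies after 3 days. The first hemogenic endothelium (HE1) was sorted from the following blast culture as KIT+ TIE2+ CD41-, the second (HE2) as KIT+ TIE2+ CD41+, and hematopoietic progenitors (HP) as KIT+ TIE2- CD41+. ES and HB cells were not sorted on any of the 3 antigens. The study describes the libraries of a stage as biologically independent.

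Libraries held 24920434 to 58782055 counts, so that 3 counts corresponded to 0.051 to 0.12 CPM (counts scaled to the size of the library). The 8 genes took 0.0208% to 0.276% of a library's counts. HE1 replicate 2 stood apart from HE1 replicate 1: 7 pluripotency markers summed to 97.6 CPM in it and to 8.41 CPM in replicate 1 (2.82% and 0.243% of the mean ES sum), 9 smooth muscle and mesenchymal markers to 1762 and 874 CPM, and 12 endothelial markers to 3402 and 5063 CPM. HE2 replicate 2 held less of the 12 endothelial markers than HE2 replicate 1 (1827 and 3262 CPM) and more of the 12 hematopoietic markers (1930 and 1290 CPM). In these bulk libraries, fewer cells of a type and less RNA per cell cannot be told apart.

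To show the control regions of the genes whose RNA is compared, the RefSeq promoter windows (mouse build GRCm38.p6, 250 bases before to 50 after the annotated start) of the 3 antigen genes and of Tie1 are printed 5′ to 3′ on the strand of the gene. They lie at chr5:75574737-75575036 (+ strand) for Kit, chr4:94739039-94739338 (+ strand) for Tek, chr4:118489800-118490099 (- strand) for Tie1 and chr11:102469834-102470133 (- strand) for Itga2b. RefSeq lists 2 windows for Kit, of which the first is shown. Capitals mark matches, on either strand, to words that GATA factors bind, spelled GATAA, to ETS words, spelled AGGAAG or CGGAAG, to RUNX words, spelled TGTGGT or TGCGGT, or to an E-box, spelled CAGNTG. None of these words overlapped another in the 4 windows.
Kit: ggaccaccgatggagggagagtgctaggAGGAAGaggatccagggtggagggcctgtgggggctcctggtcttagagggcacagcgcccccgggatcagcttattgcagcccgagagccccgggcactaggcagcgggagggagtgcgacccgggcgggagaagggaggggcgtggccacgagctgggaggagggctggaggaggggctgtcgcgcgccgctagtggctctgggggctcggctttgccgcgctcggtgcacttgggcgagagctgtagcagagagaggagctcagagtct
Tek: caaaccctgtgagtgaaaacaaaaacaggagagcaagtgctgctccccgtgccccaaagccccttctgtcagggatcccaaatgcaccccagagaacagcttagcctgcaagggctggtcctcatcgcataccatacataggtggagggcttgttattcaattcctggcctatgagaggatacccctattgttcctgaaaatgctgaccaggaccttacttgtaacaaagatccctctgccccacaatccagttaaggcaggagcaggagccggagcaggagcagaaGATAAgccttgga
Tie1: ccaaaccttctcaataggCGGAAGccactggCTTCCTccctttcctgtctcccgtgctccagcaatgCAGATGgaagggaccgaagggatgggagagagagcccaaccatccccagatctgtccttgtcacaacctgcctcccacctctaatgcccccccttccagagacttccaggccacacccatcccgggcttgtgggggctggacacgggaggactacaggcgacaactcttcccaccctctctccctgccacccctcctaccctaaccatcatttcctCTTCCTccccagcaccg
Itga2b: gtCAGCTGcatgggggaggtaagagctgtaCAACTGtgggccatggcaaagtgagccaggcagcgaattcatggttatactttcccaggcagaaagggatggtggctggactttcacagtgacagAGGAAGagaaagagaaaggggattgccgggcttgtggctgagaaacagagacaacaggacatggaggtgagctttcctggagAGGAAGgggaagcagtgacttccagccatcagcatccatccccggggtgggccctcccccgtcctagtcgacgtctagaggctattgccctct
The Kit window held 1 ETS word, the Tek window 1 GATAA just after the start, the Tie1 window 3 ETS words and 1 E-box, and the Itga2b window 2 ETS words and 2 E-boxes. Over all 32851 RefSeq promoter windows of 300 bases, 25.4% held GATAA, 46.5% an ETS word, 22.4% a RUNX word and 51.4% an E-box, so that these matches are common and are given as a description of the letters only. The G and C share was 69.0% for Kit, 52.0% for Tek, 60.3% for Tie1 and 56.0% for Itga2b. The RefSeq start lay at the gene start of the count tables for Tek, and 71, 212 and 239 bases inside the gene for Kit, Tie1 and Itga2b.

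RNA of the CD41 gene was higher in the CD41+ populations, but it was already present in cells sorted as CD41-. Itga2b (ENSMUSG00000034664, mm10 chromosome 11:102453297-102470122, - strand) measured 2.91 and 2.50 CPM in ES replicates 1 and 2, 48.0 and 34.5 CPM in HB, 227 and 127 CPM in HE1, 505 and 469 CPM in HE2, and 400 and 367 CPM in HP. No library of HE1 reached a library of HE2 or HP, and no library of HB reached HE1. With 2 libraries per stage such separation was common. In either direction it held for 59.2% of the genes tested in HE2 against HE1, 57% in HP against HE1 and 65.5% in HE1 against HB. The mean HE1 level lay at the 95th percentile of the 22596 genes tested.

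Differences were tested with the quasi-likelihood F test of edgeR, with p-values adjusted by Benjamini-Hochberg across the 22596 genes. A gene counted as called when its adjusted p was under 0.05 and its level changed by 2-fold or more. Itga2b was called higher in HE2 than in HE1 by 1.46 on the log2 scale (SE 0.25, 2.75-fold, edgeR adjusted p = 0.00921), and in HP than in HE1 by 1.12 (SE 0.25, 2.17-fold, edgeR adjusted p = 0.0102). The largest steps of the gene came earlier, with 3.92 (SE 0.29) from ES to HB and 2.10 (SE 0.26) from HB to HE1, both called. HP and HE2 did not differ beyond their spread (log2 -0.34, 95% interval -0.90 to 0.21), although both HP libraries lay under both HE2 libraries. Without HE1 replicate 2 the difference between HP and HE1 fell under 2-fold (log2 0.75, edgeR adjusted p = 0.0408), and that between HE2 and HE1 stayed called (1.097, edgeR adjusted p = 0.0303). Without HP replicate 1 the adjusted p of HP against HE1 was 0.0667 in edgeR.

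**Figure D1:**
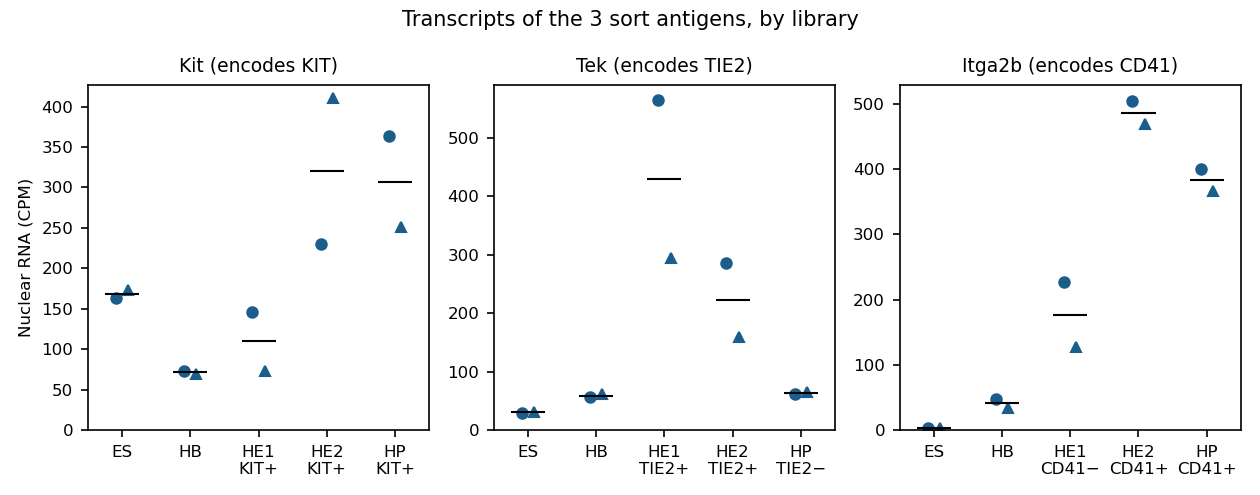
CPM (linear axes from 0) of Kit, Tek and Itga2b in the 5 stages. Circles are replicate 1, triangles replicate 2 and bars the mean of both, and the sort state of the encoded protein stands under HE1, HE2 and HP. Itga2b lies between 127 and 227 CPM in the CD41- stage, and Tek at 61.5 and 64.2 CPM in the TIE2- stage.

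Itgb3, which encodes the β3 chain, had the steepest profile of the 8 genes between the sorted populations. Itgb3 (ENSMUSG00000020689, chromosome 11:104608000-104670476, + strand) measured 13.3 and 13.4 CPM in ES, 11.7 and 13.2 CPM in HB, 97.0 and 68.5 CPM in HE1, 1065 and 1405 CPM in HE2, and 1573 and 1139 CPM in HP. The HE2 and HP libraries overlapped each other and lay more than 10-fold above both HE1 libraries. Its mean level in HP was at the 99.9th percentile of tested genes.

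Itgb3 was called higher in HE1 than in HB by 2.74 (SE 0.24, edgeR adjusted p = 3.71e-05), in HE2 than in HE1 by 3.90 (SE 0.25, 14.9-fold with a 95% interval of 10.2 to 21.9, edgeR adjusted p = 0.000165) and in HP than in HE1 by 4.03 (SE 0.25, edgeR adjusted p = 2.5e-05). ES and HB did not differ (log2 -0.10, 95% interval -0.62 to 0.41), nor did HP and HE2 (0.13, -0.36 to 0.63). Over leaving out each library in turn, the HE2 against HE1 value ranged from 3.67 to 4.2 and stayed called.

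For the sort state of CD41, HE2 and HP were averaged and set against HE1. HP also differs from HE1 in TIE2, so that this contrast does not separate CD41 from TIE2. Both integrin genes were called higher, Itga2b by 1.29 (SE 0.23, 2.44-fold, edgeR adjusted p = 0.003) and Itgb3 by 3.97 (SE 0.24, 15.6-fold, edgeR adjusted p = 3.26e-05), where 4.89% of all tested genes were called higher. Without HE1 replicate 2 the Itga2b value fell under 2-fold (log2 0.93), so that its call was lost. The Itgb3 value ran from 3.74 to 4.27 over the omission of each library and kept its call. Of the 8 genes, 7 were called in this contrast. Kit, Itga2b, Itgb3 and Angpt1 were higher in the CD41+ stages. Tek, Kitl and Angpt2 were lower, where 13.9% of tested genes were called lower. Of these, Tek (-0.95) and Kitl (-0.87) were not called in HE2 against HE1, which the sort separates by CD41 alone. The count was 6 to 7 over the omission of each library, where 9.1% to 24.7% of all genes were called in either direction. Scaled by exon length (FPKM, which allows a comparison between genes), the level of Itga2b exceeded that of Itgb3 in HE1, at 41.7 and 23.3 against 16.4 and 11.6. In HE2 and HP the order was inverted in every library. The ratio of Itgb3 to Itga2b within a library was 0.395 and 0.498 for the HE1 libraries, 1.95 and 2.77 for those of HE2, and 3.63 and 2.87 for those of HP.

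Hematopoietic and erythroid markers were called higher in the same comparisons as the integrin genes. Of 11 tested hematopoietic markers 11 were called higher in HE2 than in HE1, as were 8 of 8 erythroid markers, against 3.26% of all tested genes, and in HP against HE1 10 of 11 and 8 of 8 were, against 5.35%. Without HE1 replicate 2 the counts in HE2 were 10 of 12 hematopoietic and 3 of 8 erythroid markers, against 1.56% of all genes in that fit. Without HE2 replicate 2 they were 11 of 12 and 7 of 8, against 1.33%. The macrophage markers summed to 51.6 and 27.9 CPM in HE1, 43.8 and 33.1 CPM in HE2, and 39.1 and 45.9 CPM in HP, and in HE1 most of this sum was Mrc1, the mannose receptor that some endothelium also carries, and Cd68. Mrc1 measured 42.3 and 10.6 CPM in HE1, 16.5 and 12.5 CPM in HE2, and 1.12 and 7.60 CPM in HP. The other 4 (Csf1r, Adgre1, Fcgr1 and Lyz2) were higher in both HP libraries than in both HE1 libraries, among them Csf1r, the receptor of the macrophage growth factor M-CSF, with 0.379 and 1.29 CPM in HE1, 3.11 and 2.03 CPM in HE2, and 5.93 and 9.38 CPM in HP. Lyz2, which encodes lysozyme, measured 1.05 and 1.98 CPM in HE1, 14.7 and 13.0 CPM in HE2, and 21.1 and 12.3 CPM in HP. Adgre1 and Fcgr1 passed the filter on low counts only through HE2 and HP, and no count of calls is given for the macrophage list. The 10 megakaryocyte and platelet markers summed to 14.3 and 10.6 CPM in the HE1 libraries, and to 66.8 to 142 CPM in those of HE2 and HP. Only Ppbp of these 10 had no count in either HE1 library, and none was at 0 in HE2 or HP. Gp6, Gp9, Pf4 and Treml1 were at 0 to 0.168 CPM in HE1 and near 0 in ES and HB. They passed the filter on low counts only through the later stages, and no count of calls is given for this list. Gp1ba, a subunit of the von Willebrand factor receptor, measured 3.83 and 1.82 CPM in HE1, 11.7 and 14.3 CPM in HE2, and 13.9 and 11.3 CPM in HP. The 7 markers of mast cells, another lineage that carries KIT, summed to 1.77 and 1.29 CPM in HE1, 2.80 and 3.84 CPM in HE2, and 8.05 and 4.86 CPM in HP. Cpa3, a mast cell carboxypeptidase, measured 0.210 and 0 CPM in HE1, 1.80 and 3.05 CPM in HE2, and 5.68 and 2.42 CPM in HP, and it passed the filter on low counts only through these later stages, so that no test is given. Hdc, which makes histamine, measured 0.762 to 2.35 CPM in these stages, and the remaining 5 were under 0.1 CPM in every library of them, with Cma1 and Mcpt4 at 0 counts. The part of these cell types in the integrin and Kit results was not tested.

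RNA of the TIE2 gene was highest in HE1, intermediate in HE2 and lowest of the sorted stages in the TIE2- progenitors. Tek (ENSMUSG00000006386, chromosome 4:94739289-94874976, + strand) measured 29.7 and 30.7 CPM in ES, 57.2 and 60.8 CPM in HB, 564 and 294 CPM in HE1, 285 and 159 CPM in HE2, and 61.5 and 64.2 CPM in HP. The libraries of HE1, HE2 and HP did not overlap, but the lower HE1 library and the higher HE2 library were close. The HP level was that of HB, where cells had not been sorted on TIE2 (HP against HB log2 0.09, 95% interval -0.58 to 0.76), and its percentile among tested genes was 82.1.

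Tek was called higher in HE1 than in HB by 2.86 (SE 0.32, 7.27-fold, edgeR adjusted p = 0.000156) and lower in HP than in HE1, where it fell by 2.77 on the log2 scale (SE 0.32, 6.83-fold, edgeR adjusted p = 0.000392). The 2 single steps in between were not called. From HE1 to HE2 the log2 difference was -0.95 (SE 0.30, edgeR adjusted p = 0.0604), and it was called without HE1 replicate 2 (-1.35, edgeR adjusted p = 0.0337) or without HE2 replicate 1 (-1.42, edgeR adjusted p = 0.0159). From HE2 to HP, the pair that the sort separates by TIE2 alone, it was -1.82 (SE 0.31, 95% interval -2.51 to -1.14, unadjusted p = 0.000131, edgeR adjusted p = 0.0722). That step was called by limma-voom (adjusted p = 0.0495) and by DESeq2 (adjusted p = 2.05e-06).

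Levels of Tie1 overlapped between the 2 stages of hemogenic endothelium and were lower in HP. Tie1 (ENSMUSG00000033191, chromosome 4:118471191-118490061, - strand) measured 2.18 and 2.47 CPM in ES, 56.5 and 37.5 CPM in HB, 673 and 370 CPM in HE1, 552 and 412 CPM in HE2, and 258 and 195 CPM in HP. Both HE2 libraries lay between the HE1 libraries, and both HP libraries lay under all 4 libraries of hemogenic endothelium. Tie1 rose by 4.34 (SE 0.35) from ES to HB and by 3.47 (SE 0.32) from HB to HE1, and HE2 and HE1 did not differ beyond their spread (log2 -0.11, 95% interval -0.76 to 0.53).

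HP held less Tie1 RNA than HE1, by 1.20 on the log2 scale (SE 0.29, 2.30-fold lower, edgeR adjusted p = 0.0147), and this call was lost without HE1 replicate 1 (-0.68, edgeR adjusted p = 0.068) and without either HP library. Tie1 was called higher in HP than in HB, by 2.27 (SE 0.31, edgeR adjusted p = 0.000286), and the difference between Tie1 and Tek in these changes was not tested. The per-length ratio of Tie1 to Tek within a library was 0.946 and 0.591 for the HB libraries, 1.14 and 1.20 for those of HE1, 1.85 and 2.48 for those of HE2, and 4.03 and 2.91 for those of HP. Its values did not overlap between any 2 of these stages.

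**Figure D2:**
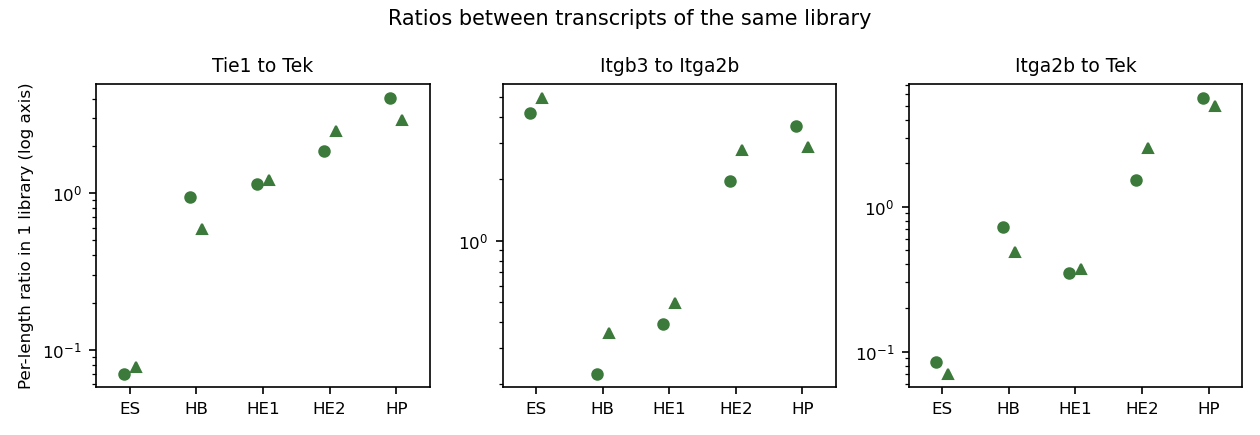
Ratios of length-scaled levels (FPKM) of 2 transcripts within the same library, on log axes, by stage, with circles for replicate 1 and triangles for replicate 2. The ratio of Tie1 to Tek is 1.14 and 1.20 in HE1 and 4.03 and 2.91 in HP. That of Itgb3 to Itga2b is 0.395 and 0.498 in HE1 and 3.63 and 2.87 in HP. That of Itga2b to Tek is 0.348 and 0.372 in HE1 and 5.62 and 4.94 in HP.

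For the sort state of TIE2, HP was set against the mean of HE1 and HE2. HE1 also differs from HP in CD41, so that this contrast does not separate TIE2 from CD41. Tek was called lower, at -2.30 (SE 0.29, 4.91-fold lower, edgeR adjusted p = 0.00133), and so was Tie1 at -1.15 (SE 0.27, 2.21-fold lower, edgeR adjusted p = 0.0212), where 4% of all tested genes were called lower. Of the 8 genes, 6 were called in this contrast. Kitl (-1.43) and Angpt2 were also lower, and Itgb3 (2.08) and Angpt1 were higher, where 2.9% of all tested genes were called higher. Itgb3 differed by only 0.13 in HP against HE2, the pair that the sort separates by TIE2 alone. Neither these 6 genes nor any other tested gene was called in that pair. The count was 3 to 6 over the omission of each library. It was 3 without either HP library, where 1.62% (without replicate 1) and 4.16% (without replicate 2) of all genes were called in either direction. The Tie1 call was lost without either HP library, without HE1 replicate 1 and without HE2 replicate 1, and the Tek call was kept over all 10 omissions (-2.49 to -2.01). The 12 endothelial markers summed to 5063 and 3402 CPM in HE1, 3262 and 1827 CPM in HE2, and 885 and 995 CPM in HP, and 12 of 12 were called lower in HP than in HE1, against 11.2% of all tested genes (10 of 12 without HP replicate 1, against 4.66%). None of the 12 was at 0 in HP. Per 100 CPM of this sum, Tek measured 11.1 and 8.66 CPM in HE1, 8.75 and 8.71 CPM in HE2, and 6.95 and 6.45 CPM in HP. The part of endothelial cells in the Tek and Tie1 results was not tested.

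Kit, the antigen on which all 3 populations were positive, was not evenly expressed among them. Kit (ENSMUSG00000005672, chromosome 5:75574916-75656722, + strand) measured 164 and 173 CPM in ES, 73.3 and 69.3 CPM in HB, 146 and 73.0 CPM in HE1, 230 and 410 CPM in HE2, and 363 and 251 CPM in HP. All 4 libraries of the CD41+ stages lay above both HE1 libraries, and HE1 replicate 2 lay within 1 CPM of HB replicate 1. ES cells, which were not sorted on KIT, held more Kit RNA than either library of the KIT+ HE1 stage. Kit was also the 1 gene of the 8 called lower in HB than in ES, where it fell by 1.24 (SE 0.34, edgeR adjusted p = 0.0133), a call that was lost without either HB library. ES and HE1 did not differ beyond their spread (HE1 against ES -0.62, 95% interval -1.35 to 0.12).

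Kit was called higher in HE2 than in HE1 by 1.55 (SE 0.34, 2.92-fold, edgeR adjusted p = 0.0207) and in HP than in HE1 by 1.49 (SE 0.34, 2.80-fold, edgeR adjusted p = 0.0103). HE2 and HP did not differ (log2 -0.06, 95% interval -0.79 to 0.67). From HB to HE1, where KIT became a criterion of the sort, no difference in Kit RNA was called (0.62, 95% interval -0.12 to 1.36), and this value was set by the HE1 libraries, at -0.01 without HE1 replicate 1 and at 1.04 (edgeR adjusted p = 0.0369, called) without HE1 replicate 2. Without HE1 replicate 2 the higher level in HE2 was no longer called (1.13, edgeR adjusted p = 0.103), nor was that in HP (1.07, edgeR adjusted p = 0.0628). The call in HE2 was also lost without HE2 replicate 2 (1.08, edgeR adjusted p = 0.175), and the call in HP without HP replicate 1 (edgeR adjusted p = 0.0876).

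Kitl, the KIT ligand, was a low transcript that peaked in HE1. Kitl (ENSMUSG00000019966, chromosome 10:100015630-100100416, + strand) measured 5.23 and 6.74 CPM in ES, 9.82 and 9.27 CPM in HB, 21.5 and 17 CPM in HE1, 15.8 and 5.21 CPM in HE2, and 4.61 and 5.94 CPM in HP. The HE2 libraries differed from each other by 3.04-fold, the widest gap between replicates among the 8 genes. Kitl fell by 1.87 from HE1 to HP (SE 0.43, 3.65-fold, edgeR adjusted p = 0.0106), a call that was lost without HP replicate 1, and the steps from HB to HE1 (1.01, SE 0.41, edgeR adjusted p = 0.0866), HE1 to HE2 (-0.87, SE 0.41, edgeR adjusted p = 0.158) and HE2 to HP (-0.997, SE 0.42, edgeR adjusted p = 0.567) were not called. Without HE2 replicate 1, the step from HE1 to HE2 was called (-1.86, edgeR adjusted p = 0.00434) and that from HE2 to HP was 0.01. Without HE2 replicate 2, the step from HE2 to HP was called (-1.58, edgeR adjusted p = 0.0186).

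RNA of both TIE2 ligands rose from HB to HE1, and after HE1 the ligands moved in opposite directions. Angpt1 (ENSMUSG00000022309, chromosome 15:42424723-42676977, - strand) measured 0.177 and 0.373 CPM in ES, 0.595 and 0.986 CPM in HB, 4.25 and 5.58 CPM in HE1, 12.8 and 22.0 CPM in HE2, and 47.4 and 33.9 CPM in HP. Its libraries did not overlap between any 2 stages, with 10 and 13 counts in ES and 2076 and 1066 counts in HP. Angpt1, the activating ligand, was thus most abundant in the population sorted as TIE2-. The gene was called higher at the steps from HB to HE1 (2.62, SE 0.40, edgeR adjusted p = 0.00092) and from HE1 to HE2 (1.82, SE 0.35, edgeR adjusted p = 0.0129). The latter call was lost without HE2 replicate 2 (edgeR adjusted p = 0.0842). From HE2 to HP it was not called (1.22, SE 0.33, edgeR adjusted p = 0.227). One antisense gene, Gm17473, overlaps an Angpt1 exon, and the counts were made by strand.

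Angpt2 (ENSMUSG00000031465, chromosome 8:18690263-18741562, - strand) measured 0.177 and 0.172 CPM in ES, 1.42 and 1.01 CPM in HB, 4.63 and 3.90 CPM in HE1, 1.01 and 0.413 CPM in HE2, and 0.274 and 0.445 CPM in HP. Both HE1 libraries lay above all others, and the HE2 and HP libraries overlapped. Angpt2 rose by 1.81 (SE 0.49, edgeR adjusted p = 0.0188) from HB to HE1 and fell by 2.58 from HE1 to HE2 (SE 0.51, 5.97-fold, edgeR adjusted p = 0.0154), on 110 and 118 counts in HE1 and 33 and 13 counts in HE2. The call from HB to HE1 was lost without either HB library and that from HE1 to HE2 without HE2 replicate 2 (-2.06). Over the omission of each library the 2 values ran from 1.54 to 2.00 and from -3.34 to -2.06. HP against HE1 was -3.57 (SE 0.55, 11.9-fold lower, edgeR adjusted p = 0.00142). The per-length ratio of Angpt1 to Angpt2 was 0.651 and 1.02 for the HE1 libraries, 9.04 and 37.8 for those of HE2, and 123 and 54.0 for those of HP, with as few as 12 counts of Angpt2 behind the last values. In the contrast by TIE2 state, Angpt1 was called higher in HP by 2.13 (SE 0.28, edgeR adjusted p = 0.00142), where 2.9% of tested genes were called higher, and Angpt2 was called lower at -2.29 (SE 0.50, edgeR adjusted p = 0.016). The Angpt2 call in this contrast was lost without either HP library.

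**Figure D3:**
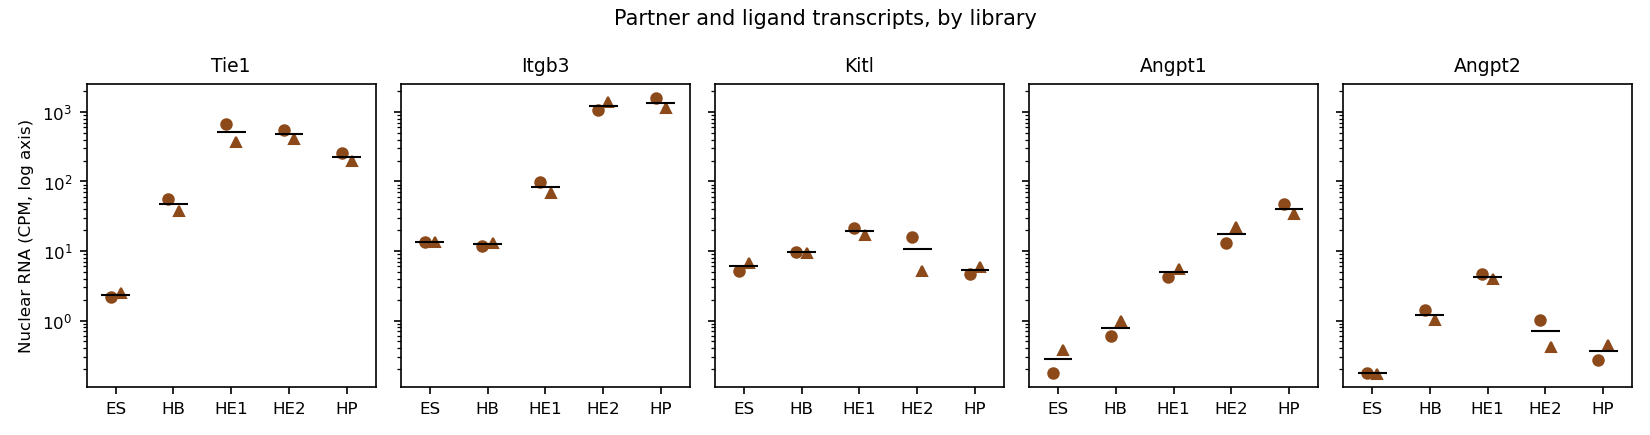
CPM (shared log axis) of Tie1, Itgb3, Kitl, Angpt1 and Angpt2 by stage, with circles for replicate 1, triangles for replicate 2 and bars for the mean. Itgb3 steps from 68.5 and 97.0 CPM in HE1 to between 1065 and 1573 CPM in HE2 and HP, Angpt1 is higher in each later stage and Angpt2 is highest in HE1.

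Read over the stages, the 8 genes fell into several orders of mean level. Itga2b and Kit had their highest mean in HE2, Itgb3 and Angpt1 in HP, and Tek, Tie1, Kitl and Angpt2 in HE1. Neighbours that were not called apart in these orders were HP and HE2 for every gene in which they stood next to each other (Kit, Tek, Tie1, Itga2b, Itgb3, Angpt1 and Angpt2), HE2 and HE1 for Tek, Tie1 and Kitl, ES and HB for Tek, Itgb3 and Kitl, HB and HP for Tek, and ES and HP as well as HE2 and HB for Angpt2. For Kit no neighbours in the order HB, HE1, ES, HP, HE2 were called apart, and for Kitl none in the order HP, ES, HB, HE2, HE1.

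Counted over comparisons, 5 of the 8 genes were called between HB and ES (4 higher, against 11.5% of all tested genes, and 1 lower, against 17.3%). Angpt1 and Angpt2, which are 2 of the 4, had 6 to 13 counts in ES and passed the filter on low counts only through later stages, so that their calls in this comparison are not read further. Between HE1 and HB 6 of 8 were called, all higher, against 12.7% of tested genes called higher. Between HE2 and HE1 5 of 8 were called, 4 higher (Kit, Itga2b, Itgb3 and Angpt1, against 3.26% of tested genes) and 1 lower (Angpt2, against 5.39%). Between HP and HE1 8 of 8 were called, 4 higher against 5.35% and 4 lower against 11.2% of tested genes. Leaving out HE1 replicate 2 gave 7 of 8 for HE1 against HB, 5 of 8 for HE2 against HE1 and 6 of 8 for HP against HE1, where 16.8%, 2.66% and 10.7% of all genes were called in either direction. Leaving out HE2 replicate 2 gave 2 of 8 for HE2 against HE1, where 1.73% were called. Leaving out HP replicate 1 gave 4 of 8 for HP against HE1, where 7.82% were called.

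Between HP and HE2, 0 of the 8 genes and 0% of the tested genes were called by edgeR. Of the 22596 tested genes, 670 with more RNA in HP and 1113 with less reached an unadjusted p under 0.05 in edgeR. Tek, Tie1, Kitl and Angpt1 were among them, and no gene kept an adjusted p under 0.05. limma-voom called 1 of the 8 (Tek) and 0.274% of all genes, and DESeq2 called 3 (Tek, Tie1 and Angpt1) and 1.33% of all genes. Tek, Tie1 and Itga2b were lower in both HP libraries than in both HE2 libraries and Angpt1 was higher, 4 of 8 genes without overlap, against 28.8% of all tested genes. For Kit, Itga2b and Itgb3 the 95% intervals of this comparison lay within 2-fold in either direction, and for Tek the whole interval lay beyond 2-fold.

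**Figure D4:**
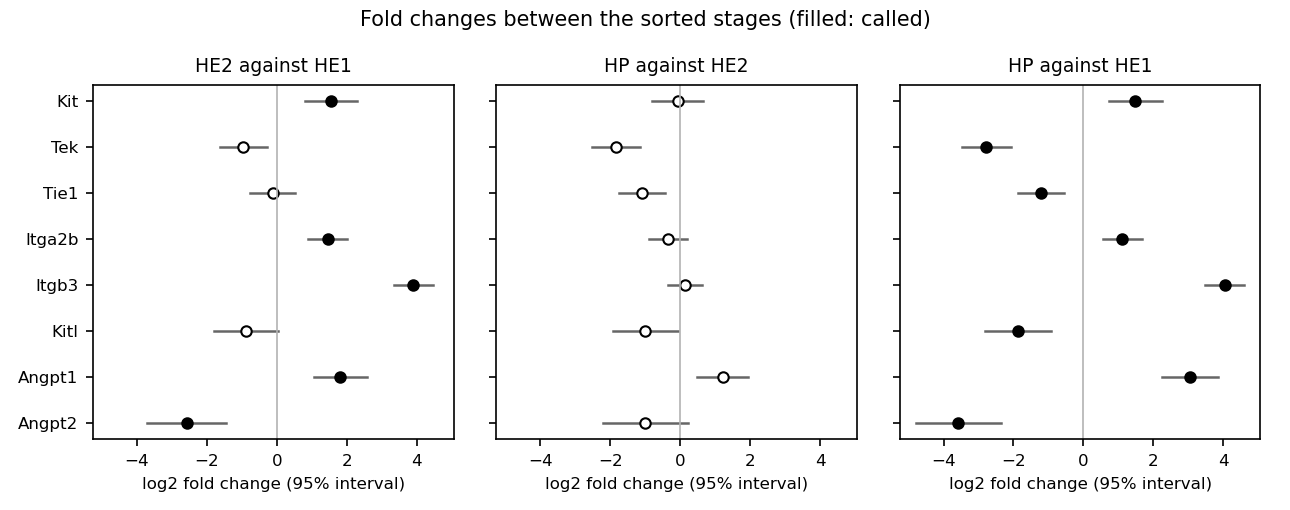
Log2 fold changes of the 8 genes between the sorted stages with their 95% intervals, on a shared axis. Filled points passed an adjusted p of 0.05 and a 2-fold change in edgeR, which held for 5 genes in HE2 against HE1, 0 in HP against HE2 and 8 in HP against HE1.

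Genes of the pathways around the antigens were described by counts. Against HE1, the calls over all tested genes came to 3.26% (more RNA) and 5.39% (less RNA) for HE2, and to 5.35% and 11.2% for HP. Of 20 KIT signalling genes, 2 were called higher in HE2 than in HE1 (median log2 change 0.33, against -0.08 over all tested genes), and in HP against HE1 2 genes rose and 1 fell (median 0.42, against -0.02), a share near that of all tested genes. Ptpn6, the phosphatase SHP-1 that dampens KIT signalling, measured 15.9 and 10.8 CPM in HE1, 61.1 and 101 CPM in HE2, and 135 and 96.5 CPM in HP, and was higher by 2.60 in HE2 (SE 0.27, edgeR adjusted p = 0.000687). Stat5a, a transcription factor activated by KIT and by cytokine receptors, measured 36.9 and 22.9 CPM in HE1, 55.4 and 87.2 CPM in HE2, and 102.4 and 87.5 CPM in HP, and was higher by 1.26 in HE2 (SE 0.25, edgeR adjusted p = 0.016). Socs1, an inhibitor of cytokine signalling, was lower in HP than in HE1 (-1.83, SE 0.49, edgeR adjusted p = 0.0212), but its HE1 libraries differed, at 3.70 and 12 CPM. When HE1 replicate 2 was left out, 1 KIT signalling gene was called higher in HE2, against 1.56% of all genes in that fit, and 2 higher and 0 lower in HP, against 3.87% and 6.86%. Without HE2 replicate 2, 1 was called higher in HE2, against 1.33% of all genes. Without HE1 replicate 1, 3 were higher and 1 lower, against 5.61% and 12%.

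Of 12 tested TIE2 signalling genes, 1 was called higher in HE2 than in HE1, against 3.26% of all tested genes (median of the list -0.17). In HP against HE1 1 gene rose and 3 fell, against 5.35% and 11.2% (median of the list -0.46). Dok2, an adaptor protein that TIE2 recruits and that blood cells also use, measured 4.63 and 3.47 CPM in HE1, 23.0 and 19.9 CPM in HE2, and 31.4 and 25.8 CPM in HP, against the direction of Tek (HE2 against HE1 2.41, SE 0.23, edgeR adjusted p = 0.000598). Ptprb, the endothelial phosphatase VE-PTP that acts on TIE2, measured 602 and 485 CPM in HE1, 304 and 123 CPM in HE2, and 18.9 and 59.6 CPM in HP, and was lower in HP than in HE1 by 3.79 on the log2 scale (SE 0.53, edgeR adjusted p = 0.000981). Nos3, the endothelial nitric oxide synthase, was at 142 and 90.1 CPM in HE1 and at 1.51 and 12.6 CPM in HP (-4.06, SE 0.79, edgeR adjusted p = 0.00506). Itga5, the α5 chain of a fibronectin receptor, was at 272 and 218 CPM in HE1 and at 113 and 111 CPM in HP (-1.12, SE 0.22, edgeR adjusted p = 0.00474). These counts were the same without HE1 replicate 2 and without HE2 replicate 2, where 1.56% and 1.33% of all genes were called higher in HE2. In HE2, 2 genes were also called lower without HE2 replicate 1, against 8.67% of all genes, or without either HP library, against 4.55% and 4.74%, and 1 without HE1 replicate 1, against 12%.

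Of 12 tested partners and activators of the CD41/CD61 integrin, 4 were called higher in HE2 than in HE1, against 3.26% of all tested genes (median of the list 0.62), and 5 in HP than in HE1, against 5.35% (median of the list 0.71). None was called lower, where 5.39% and 11.2% of all genes were, so that 0 of 12 lies near the share of all genes. Fermt3, the blood cell kindlin that activates β integrins, measured 57.3 and 37.7 CPM in HE1, 153 and 231 CPM in HE2, and 272 and 230 CPM in HP (HE2 against HE1 2.02, SE 0.24, edgeR adjusted p = 0.0013). Apbb1ip, the RAP1 effector RIAM, went from 1.35 and 1.12 CPM in HE1 to 6.43 and 7.37 CPM in HE2 (2.48, SE 0.32, edgeR adjusted p = 0.00202). Syk, a kinase downstream of the integrin, was at 32.6 and 13.9 CPM in HE1 and at 65.6 and 110 CPM in HE2 (1.92, SE 0.35, edgeR adjusted p = 0.0106). Rasgrp2, the exchange factor that loads RAP1 in platelets, was at 15.9 and 13.2 CPM in HE1 and at 44.3 and 42.1 CPM in HE2 (1.57, SE 0.17, edgeR adjusted p = 0.000739). Without HE1 replicate 2 these counts were 4 in HE2 and 4 in HP, against 1.56% and 3.87% of all genes, and without HE2 replicate 2 they were 3 and 5, against 1.33% and 5.08%.

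Of 8 genes for extracellular ligands of the integrin 5 passed the filter on low counts, of which 1 was called higher in HE2 than in HE1, against 3.26% of all tested genes (median of the list -0.17). In HP against HE1 1 gene rose and 2 fell, against 5.35% and 11.2% (median of the list -0.80). Fn1, fibronectin, measured 6907 and 3776 CPM in HE1, 5724 and 3841 CPM in HE2, and 1888 and 2135 CPM in HP, and was lower in HP than in HE1 (-1.41, SE 0.31, edgeR adjusted p = 0.00901). Vwf, von Willebrand factor, was also lower (-1.32, SE 0.43, edgeR adjusted p = 0.0468). Spp1, osteopontin, measured 2.19 and 5.48 CPM in HE1, 19.0 and 9.81 CPM in HE2, and 16.9 and 37.2 CPM in HP, and was called higher in both (1.89 and 2.79). Without HE1 replicate 2 the median of the list was 0 in HE2 and 0.55 in HP, and without HE1 replicate 1 it was -0.29 and -0.88. The higher call in HE2 was lost without either HE1 library or without HE2 replicate 1, and in the last of these fits a lower call appeared. The lower calls in HP were not all kept on leaving out any library other than those of HE2.

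**Figure D5:**
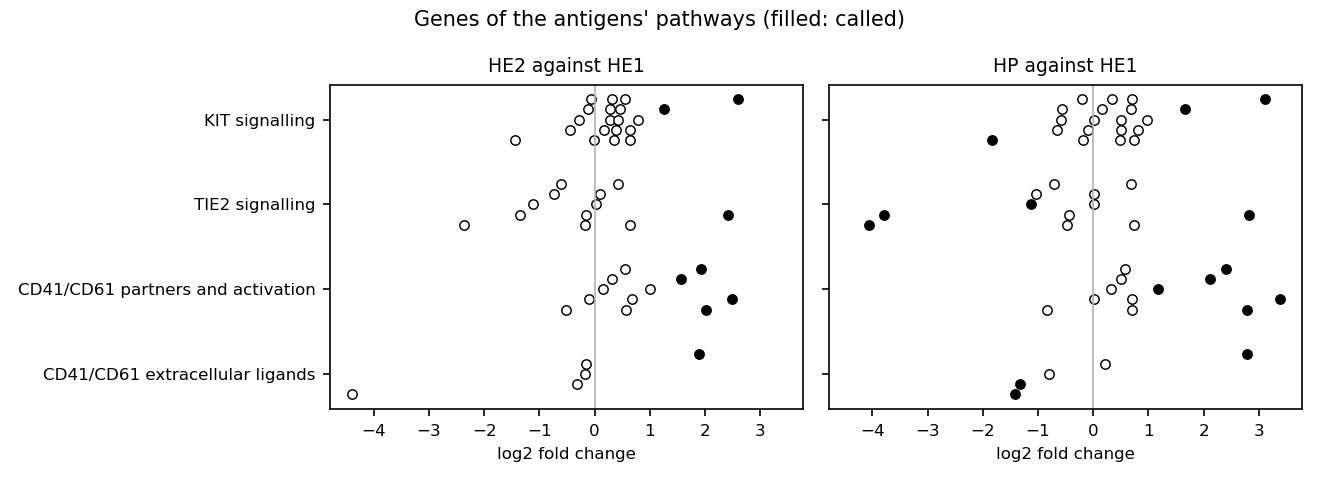
Log2 fold changes against HE1 of the tested genes of 4 pathway lists, 1 point per gene with filled points for called genes, on a shared axis and with points spread vertically for legibility. In the list of CD41/CD61 partners all called genes lie to the right of 0, with 4 in HE2 and 5 in HP.

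The genes whose profile was most like that of each antigen were looked up by the Pearson correlation of log2 CPM (prior count 2) over the 10 libraries, among 15566 tested genes of the matrix. Most like Tek were Caskin2 (r = 0.992), Thbd, which encodes the endothelial anticoagulant receptor thrombomodulin (0.988), Arhgap27 (0.982), Pik3r3 (0.981) and Ramp2, a subunit of the adrenomedullin receptor (0.98). Thbd had mean levels of 48.6 CPM in HE1, 22.9 CPM in HE2 and 6.21 CPM in HP. Most like Itga2b were Prkar2b (0.996), Mef2c (0.995), Pik3r1 (0.995), Snx9 (0.992) and Phf2 (0.992). Mef2c, a transcription factor of the heart, vessels and megakaryocytes, averaged 0.184 CPM in ES, 47.6 CPM in HE1, 127 CPM in HE2 and 143 CPM in HP. Most like Kit were Por (0.998), Nnt, which is listed under 2 gene identifiers (0.995 and 0.992), Cgas (0.986) and Mtmr1 (0.982), all of which were lowest in HB and higher in ES than in HE1. With 10 libraries in 5 stages such values are high for many genes. Ranked by Spearman's rho, 0 of the 5 genes of each antigen stayed among the top, and over the 5 stage means 1 of 5 did for each, so that these names describe this measure only. Tie1 ranked 786 in likeness to Tek (0.828), and Itgb3 ranked 1850 in likeness to Itga2b (0.844). Tie1 (0.963, rank 286) and Angpt1 (0.913, rank 989) were more like Itga2b than Itgb3 was.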

How the data were processed

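Nuclear-enriched RNA of 10 libraries was made with a strand-marking kit after rRNA depletion. Per the labels and file headers, the authors trimmed reads with Trimmomatic, aligned them to mm10 with HISAT2 2.2.1 and counted fragments over exons of Ensembl release 102 with featureCounts 2.0.1, by strand and with reads shared by overlapping genes counted for each. The deposited count tables hold these raw counts. The deposited matrix of stage means, read as a score, holds the authors' averaged CPM and served for membership and as an alternative for mean levels.

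The counts were scaled by TMM and tested with edgeR 4.0.16 (R 4.3.3) over the 22596 genes that passed filterByExpr, all 10 libraries in 1 fit with 5 residual degrees of freedom (common biological coefficient of variation 0.226). CPM used TMM-scaled library sizes and FPKM the exon length of the count tables. A call needed an adjusted p under 0.05 and a 2-fold change. Alternatives were limma-voom 3.58.1, DESeq2 1.42.0, other scalings, filters, gene and library sets, fold thresholds, a replicate block, and the omission of each library. P-values measure the spread between these libraries. CPM limits from 3 counts cover counting error only.

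The 8 genes were chosen by name. Of each pathway list, up to 4 genes called in HE2 or HP against HE1 are named by size, and for each antigen the 5 genes of highest correlation. Members and lists were chosen with earlier results of these data known. Promoter windows came from a set of RefSeq windows (GRCm38.p6) and were searched with Python 3.11. The set used held windows for 5 of the 8 genes.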

Additional observations from a re-analysis of the deposited data

How the results depend on the processing

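Of 920 alternative values of 46 fold changes, 846 kept their direction and side of the threshold, 40 lost the call, 24 gained it and 10 changed sign, none of the last among called values. The sign changes were Itgb3 in HB against ES (0.0083 with library sizes without the 20 most counted genes, -0.19 to 0.0089 over omissions of 1 library), Kit in HE1 against HB (-0.012 to 1.04), Tie1 in HE2 against HE1 (-0.48 to 0.40), and, in HP against HE2, Itgb3 (-0.12 to 0.35), Kitl (-1.58 to 0.013) and Kit (-0.42 to 0.42), all over omissions of 1 library. At a 4-fold threshold Tie1, Itga2b and Angpt2 stayed called in HB against ES, where the call of Angpt2 is not read further. Itgb3 and Angpt2 stayed called in HE2 against HE1, and Tek, Itgb3, Angpt1 and Angpt2 in HP against HE1. Of the 2 integrin genes, Itgb3 stayed called in the CD41 contrast. The fit of HE1 and HE2 alone called 3, a count that is not read further without the share of all genes in that fit. For HP against HE2, limma-voom called 1 and DESeq2 3, where 0.274% and 1.33% of all genes were called. The fit without a filter on low counts called 4, where 1.37% were. Over omissions of 1 library the counts ran from 3 to 5 in HB against ES, 5 to 7 in HE1 against HB, 2 to 7 in HE2 against HE1, 0 to 2 in HP against HE2, and 4 to 8 in HP against HE1. For the genes of the antigen itself they ran from 1 to 2 of the 2 integrin genes in the CD41 contrast and from 2 to 4 of the 4 genes Tek, Tie1, Angpt1 and Angpt2 in the TIE2 contrast, and over all 8 genes from 6 to 7 and from 3 to 6. The lowest counts came without HB replicate 2, HE2 replicate 2, HP replicate 1, HE1 replicate 2 and, for TIE2, either HP library, and the cause was not tested. Replicates share only a number, and the deviations of equal numbers correlated from -0.316 to 0.213 between stages. A replicate block changed no count of called genes. It gave 6 in HE1 against HB, where 18.5% of all genes were called, and 5 in HE2 against HE1, where 6.27% were. It gave 0 in HP against HE2, where 0% were called, and 8 in HP against HE1, where 14.3% were. The calls in HB against ES and in the CD41 and TIE2 contrasts also kept their number. Over all tested genes, HE2 against HE1 had 737 higher and 1217 lower calls, and these numbers ran from 324 to 1384 and from 98 to 2927 over the alternatives. The transcripts most limited by depth were Angpt1 and Angpt2, with 6 to 18 counts in some libraries.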
